A study of Rattus norvegicus with 24 samples.

Results

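Potassium channel genes were followed in the hippocampus of female rats as the 89 of 20318 deposited features whose symbol begins with Kcn and then holds letters and a digit, with 1 inward rectifier gene left out by the rule. They comprised 39 voltage-gated pore subunits, 13 inward rectifiers, 14 two-pore channels, 8 calcium- or sodium-activated channels and 15 auxiliary subunits. Of these, 84 had a mean of at least 10 normalised counts over the 24 libraries and were tested. The other 5 were Kcna10, Kcnj1, Kcnk7, Kcnu1 and Kcnmb1, with means of 0.1911, 0.8049, 4.891, 4.14 and 5.784 normalised counts. All values are normalised counts, the authors' scaled read estimates per gene, which are not divided by gene length, so that levels are compared between libraries and never between genes.

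Rats were 6 months of age at surgery, and whole hippocampal RNA was sequenced. Prevention rats had their ovaries removed and then received the estrogen E2 for 5 weeks (n = 5). Treatment rats had their ovaries removed, received vehicle for 3 weeks and then E2 for 2 weeks (n = 5, replicates 1, 2, 5, 6 and 7). OVX rats had their ovaries removed and received vehicle for 7 weeks (n = 7), and SHAM rats, for which the labels give no ovary removal, received vehicle for 7 weeks (n = 7). The E2 groups and the vehicle groups thus differ by the labels in total weeks of dosing as well as in E2. The labels give neither the strain nor the dose, and do not say whether each library came from a separate animal, so p-values measure the spread between these libraries.

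Potassium channels let potassium leave the cell and thereby set the resting potential, end the action potential and limit repetitive firing. Voltage-gated channels open on depolarisation, inward rectifiers and two-pore channels carry the resting conductance, and calcium-activated channels produce the afterhyperpolarisation that follows spikes. In the hippocampus these channels shape the excitability of pyramidal cells, granule cells and interneurons, and inward rectifiers of glia take up potassium released by firing neurons. Estradiol is known to alter the excitability of hippocampal pyramidal cells.

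Libraries that stood apart bear on every value below. In 7 libraries, all 5 of Prevention and Treatment 1 and 2, the feature LOC257642 lay above 16 on the log2 scale, and it lay below 16 in the other 17. These 7 are called the high set. This division was made from the values, and no batch is named in the labels. No OVX or SHAM library belonged to the high set and no Prevention library to the other, so that set and group cannot be told apart for Prevention except through the 5 Treatment libraries, which hold both. A score of 8 thalamus markers (mean log2 level) was 9.48 to 9.77 in Prevention 1 and 4, Treatment 6, OVX 2 and SHAM 5, and 7.93 to 8.70 in the other 19 libraries. Of these markers, Tnnt1 had its lowest group mean in Prevention, 27.58 ± 4.26 normalised counts (SD), against 44.8 in Treatment, 63.98 in OVX and 47.73 in SHAM. The other markers of the score had their highest group mean in Prevention. A score of choroid plexus markers (9 of 10 listed), the tissue that makes cerebrospinal fluid, ran from 5.86 to 12.60 and was highest in SHAM 7. Most listed markers of hippocampal neurons were well measured throughout, among them Slc17a7, the vesicular glutamate transporter, and Prox1 of granule cells. The listed marker Spink8 was low, at 1.156 to 10.24 normalised counts, and was not tested. No marker of either score was at 0 in any library. The normalised counts of a library summed to between 35.4 M and 38.8 M (mega).

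No potassium channel gene passed an adjusted p of 0.05 in any of the 6 comparisons between groups or in the test for any difference among the 4 groups (limma, Benjamini-Hochberg over 16119 genes). In Prevention against OVX 0 of 84 members were called, and 0.304% of all tested genes were. At an unadjusted p under 0.05 there were 12 members (14.3%), against 18.6% of all genes, a share no higher than the background in this fit. Without the 5 libraries with a high thalamus score the share was 21.4%, against 13.5% of all genes. Of the 12 members in the fit of all libraries, 11 were higher in Prevention (13.1% of members, against 10.1% of all genes) and 1 was lower (1.19%, against 8.56%). In Treatment against OVX 0 members were called and 0% of all genes, with 3 members at an unadjusted p under 0.05 (3.57%, against 7.19% of all genes), all higher in Treatment (4.1% of all genes were higher and 3.09% lower). In OVX against SHAM 0 members and 0% of all genes were called. The 7 members at an unadjusted p under 0.05 (8.33%, against 6.25%) were all lower in OVX, where 3.37% of all genes were lower and 2.88% higher.

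Treatment against Prevention likewise called 0 members and 0% of all genes. Its 7 members at an unadjusted p under 0.05 (8.33%, against 5.38%) were all lower in Treatment, where 2.62% of all genes were lower and 2.76% higher. In Prevention against SHAM 0 members were called, against 0.354% of all genes. At an unadjusted p under 0.05 it had 10 members (11.9%, against 13.3%), 9 higher in Prevention (10.7%, against 7.42%) and 1 lower (1.19%, against 5.85%). In Treatment against SHAM 0 members were called, against 0.0062% of all genes. It had 4 members at an unadjusted p under 0.05 (4.76%, against 6.1%), 2 higher in Treatment (all genes 3.29%) and 2 lower (all genes 2.8%). The test for any difference among the groups called 0 members, against 0.105% of all genes, and had 11 members at an unadjusted p under 0.05 (13.1%, against 12.7%). The smallest adjusted p of a member was 0.0559, of Kcnma1 in Prevention against OVX.

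Across the 84 tested members, the log2 change in Prevention against OVX was positive in 55 and negative in 29, with a median of 0.0767 against 0.00081 over all tested genes. The voltage-gated class had a median of 0.11 (26 of 38 positive), and the two-pore class one of 0.17 (9 of 13 positive). Inward rectifiers had a median of 0.0672, auxiliary subunits of 0.047 and the calcium- or sodium-activated class of -0.0578. With the library set as a term the voltage-gated median was 0.0142 and that of all members 0.0289. The voltage-gated and two-pore medians stayed positive when each library was left out, with ranges of 0.0919 to 0.16 and 0.10 to 0.25. The other class medians changed sign: inward rectifiers to -0.0181 without Prevention 1 and also without Prevention 4 or OVX 3, auxiliary subunits to -0.0357 without Prevention 4 and also without Prevention 1, and the calcium- or sodium-activated class to 0.0266 without Prevention 2 and also without Prevention 3, OVX 2 or OVX 6. Treatment against Prevention had 28 positive and 56 negative members and a median of -0.0777, and the voltage-gated class was negative in 29 of 38. These comparisons share the Prevention libraries. Without the 5 libraries with a high thalamus score the median in Treatment against Prevention was -0.00614, with 41 positive and 43 negative members, and that in Prevention against OVX was 0.0553, with 49 positive.

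OVX against SHAM had 33 positive and 51 negative members and a median of -0.0223, against 0.0043 over all tested genes. Treatment against OVX had 45 positive and 39 negative members, with a median of 0.012, against -0.00165 over all tested genes. Its two-pore class had a median of 0.0886 (9 of 13 positive), the calcium- or sodium-activated class 0.0396, voltage-gated channels 0.0136, inward rectifiers -0.0115 and auxiliary subunits -0.0394 (9 of 14 negative). By group means on the log2 scale, 42 of the 84 members were highest in Prevention, 14 in Treatment, 13 in OVX and 15 in SHAM. For all tested genes those shares were 31.3% in Prevention, 20.3% in Treatment, 27% in OVX and 21.4% in SHAM.

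**Figure D1:**
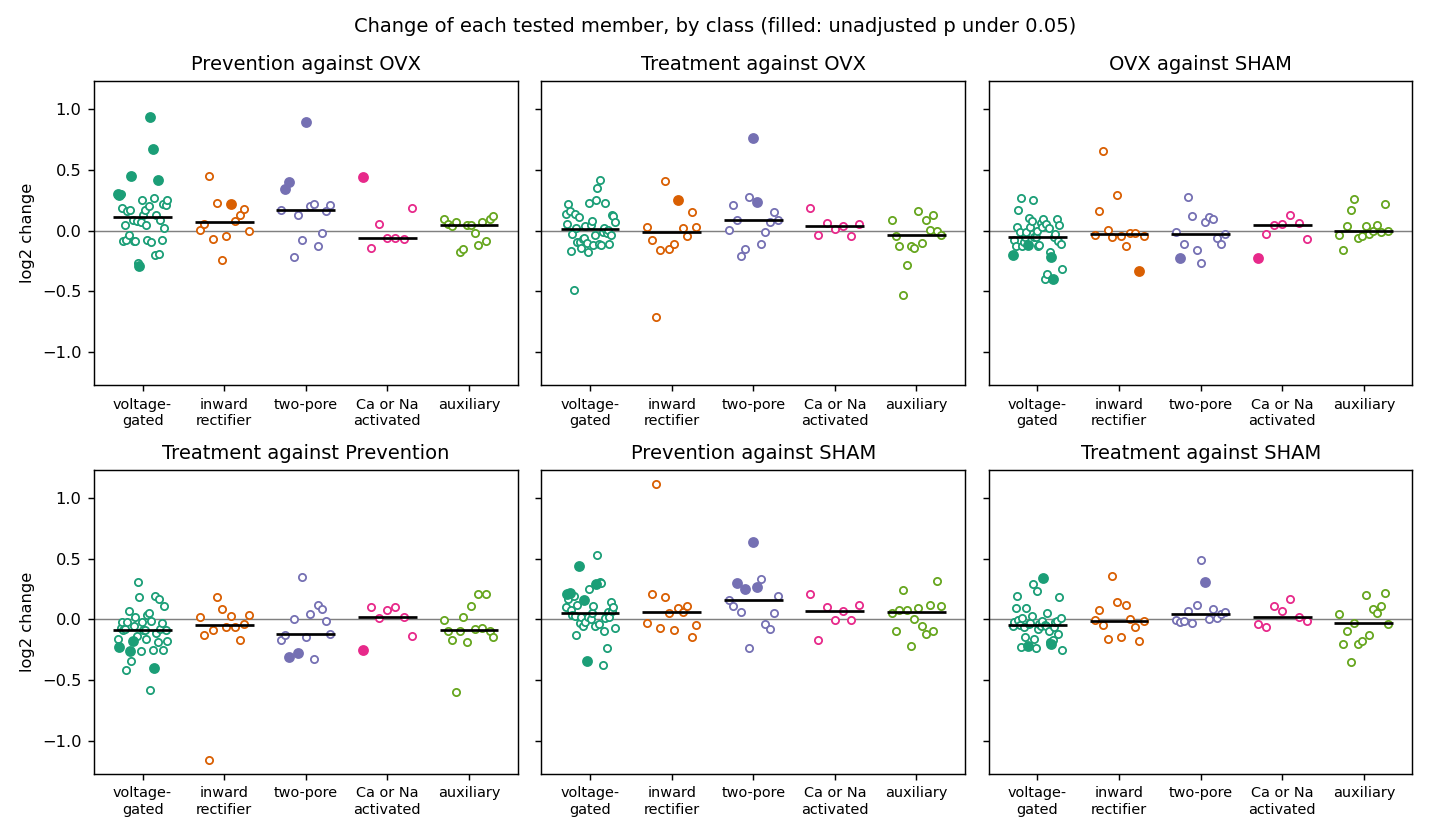
Log2 change of each tested potassium channel gene by channel class, in each of the 6 comparisons; each point is 1 gene, filled where its unadjusted p was under 0.05, and the bar is the class median. Most voltage-gated and two-pore points lie above 0 in Prevention against OVX, with medians of 0.11 and 0.17.

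Among the calcium- and sodium-activated channels, Kcnma1 had the smallest p of all members in Prevention against OVX. Kcnma1 encodes the pore of the large-conductance channel opened by calcium and voltage together, which shortens spikes and contributes to the fast afterhyperpolarisation. The window around 1 annotated start of this gene (RefSeq, GRCr8, chr15:351675-351974, plus strand, 250 bases before to 50 after that start, and inside the annotated gene, whose span begins further upstream) is shown together with that of the two-pore channel gene Kcnk18 (chr1:268360488-268360787, plus strand), since these genes had the smallest p among calcium-activated and two-pore channels in that comparison. Capitals mark the estrogen response element half-site, GGTCA or TGACC on either strand.
Kcnk18: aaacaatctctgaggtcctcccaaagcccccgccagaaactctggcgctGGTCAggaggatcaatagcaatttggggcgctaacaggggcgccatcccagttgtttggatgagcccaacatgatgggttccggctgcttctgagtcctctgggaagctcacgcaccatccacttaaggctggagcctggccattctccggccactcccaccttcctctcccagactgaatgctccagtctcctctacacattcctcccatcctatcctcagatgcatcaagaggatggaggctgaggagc
Kcnma1: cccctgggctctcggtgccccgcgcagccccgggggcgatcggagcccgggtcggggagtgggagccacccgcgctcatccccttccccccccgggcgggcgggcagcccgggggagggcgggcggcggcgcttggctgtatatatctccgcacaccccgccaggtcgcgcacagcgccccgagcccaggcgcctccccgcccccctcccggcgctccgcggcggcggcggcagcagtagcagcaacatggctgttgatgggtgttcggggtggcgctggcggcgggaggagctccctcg
The Kcnk18 window holds 1 half-site and the Kcnma1 window 0. A half-site was found in 21 of 65 windows of 59 members (32.3%), against 40.5% of all 33469 windows. The full palindrome GGTCANNNTGACC was in 0 member windows and in 0.0269% of all windows. These are counts of letters and describe the windows only.

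Kcnma1 (chr15:351065-1057117) measured 2549.7, 2988.8, 3221.5, 2791.0 and 2812.4 normalised counts in Prevention, against a lowest of 1637.9, a median of 2030.6 and a highest of 2609.0 in OVX. In Treatment it measured 2439.9, 2678.0, 2527.9, 2019.0 and 2459.5, and in SHAM 2118.7 at the lowest, 2480.9 at the median and 2899.6 at the highest. Prevention lay above every OVX library in 4 of 5 cases, and OVX was the group with the lowest mean. The change in Prevention against OVX was 0.44 on the log2 scale (SE 0.10, limma adjusted p = 0.0559), which did not pass. In Treatment against OVX it was 0.19 (adjusted p = 0.709), and in OVX against SHAM -0.23 (SE 0.0945, adjusted p = 0.795). In a bulk tissue, fewer cells that express a gene and less RNA of it per cell cannot be told apart.

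Within Treatment, the high set libraries 1 and 2 had 2439.9 and 2678.0 for Kcnma1, and the low set libraries 5, 6 and 7 had 2527.9, 2019.0 and 2459.5, so the sets overlapped. With the library set as a term the Prevention against OVX change was 0.30 (SE 0.19, adjusted p = 0.999), and without the 5 libraries with a high thalamus score it was 0.45 (SE 0.10, adjusted p = 0.177). Among fits that left out 1 library, the adjusted p was smallest without OVX 7, at 0.0257, with a change of 0.47. Kcnma1 also passed without Treatment 1, Treatment 6, OVX 4, OVX 5 or SHAM 5. It did not pass when any other single library was left out.

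The small-conductance calcium-activated channels, which underlie the medium afterhyperpolarisation, overlapped between groups. Kcnn1 averaged 688.3 ± 57.16 normalised counts in Prevention, 739.5 ± 74.17 in Treatment, 764 ± 107.9 in OVX and 776.1 ± 93.46 in SHAM (SD, n = 5, 5, 7 and 7). Kcnn2, the main such subunit of pyramidal cells, averaged 1457.4 ± 91.43 in Prevention, 1472.4 ± 169.5 in Treatment, 1408.6 ± 144.1 in OVX and 1359.0 ± 98.9 in SHAM. Kcnn3 averaged 299.3 ± 56.46 in Prevention, 317 ± 68.79 in Treatment, 310.9 ± 47.32 in OVX and 298.2 ± 35.41 in SHAM. Kcnt1, a sodium-activated channel, had the largest SD over libraries among members of the class with a mean of at least 50. It ran from 2036.5 to 3362.1 in Prevention, 1985.1 to 3390.7 in Treatment, 1964.5 to 3743.6 in OVX and 1771.5 to 3263.3 in SHAM, and the 4 ranges overlapped.

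Among the voltage-gated channels, the axonal delayed rectifier genes Kcna1 and Kcna2 were measured highest in Prevention. Kcna1 (chr4:161150378-161160051) had 2105.8, 2209.7, 2348.5, 2088.0 and 2262.7 normalised counts in Prevention, against 1541.2, 1712.0 and 2266.9 at the lowest, median and highest in OVX. Treatment libraries had 1883.7, 2076.2, 1940.2, 1884.6 and 2093.3, and SHAM ran from 1851.3 over a median of 2058.4 to 2265.6. The highest OVX library exceeded 4 of the 5 Prevention libraries, so these groups overlapped. The change in Prevention against OVX was 0.30 (SE 0.0744, limma adjusted p = 0.0622). Treatment against OVX gave 0.14 (adjusted p = 0.709), and OVX against SHAM gave -0.20 (SE 0.0679, adjusted p = 0.795). With the set as a term, Prevention against OVX gave 0.29 (SE 0.14, adjusted p = 0.999).

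Kcna2 (chr2:197392746-197406606) had 9848.5, 11443.5, 9473.8, 10606.5 and 9918.3 normalised counts in Prevention, against 7427.6, 8627.0 and 9718.5 at the lowest, median and highest in OVX. Treatment had 9271.7, 8953.6, 8407.7, 7818.7 and 9334.6, all below the lowest Prevention library, and SHAM ran from 7665.0 over 8295.3 to 11389.2. The change was 0.29 in Prevention against OVX (SE 0.0878, limma adjusted p = 0.0947), -0.23 in Treatment against Prevention (adjusted p = 0.828) and 0.21 in Prevention against SHAM (adjusted p = 0.303). Treatment and Prevention did not overlap for this gene, and the highest SHAM value lay within the Prevention range. The share of all tested genes that separated these groups in the same way was not counted. The separation is therefore a description of these libraries only. With the set as a term the Prevention against OVX change was 0.19 (SE 0.16).

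Kcnq3 and Kcnq5 contribute to the M-current, a slow current that muscarinic receptors suppress. Kcnq3 had 1971.4, 2066.5, 2395.4, 1745.5 and 1984.3 normalised counts in Prevention, against 1020.3, 1689.9 and 1910.4 at the lowest, median and highest in OVX, with 4 of 5 Prevention libraries above every OVX library. SHAM ran from 1611.1 over 2082.9 to 2392.0, and Treatment had 1591.9, 2158.7, 1548.2, 1618.2 and 2065.5. OVX was thus the group with the lowest mean, 1549.3 ± 327.1, beside 2032.6 ± 235.2 in Prevention and 2022.1 ± 301.8 in SHAM (SD). The change was 0.42 in Prevention against OVX (SE 0.14, limma adjusted p = 0.115) and -0.40 in OVX against SHAM (SE 0.13, adjusted p = 0.795). Both use the same OVX libraries. Kcnq5 averaged 5596.5 ± 1270.4 in Prevention, 5205.8 ± 489.1 in Treatment, 5225.2 ± 868.3 in OVX and 5275.5 ± 517.9 in SHAM, with overlapping ranges.

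Kcnc1 encodes a fast channel that lets interneurons and other fast-spiking cells fire rapidly. It had 3555.6, 3737.6, 3324.2, 3840.1 and 3792.9 normalised counts in Treatment, against 4630.9, 4333.7, 3945.4, 4815.8 and 4209.3 in Prevention, so that the groups did not overlap. As for Kcna2, the share of all tested genes that separated these groups was not counted. The change of Kcnc1 was -0.26 (SE 0.10, limma adjusted p = 0.793). OVX ran from 3420.8 over 3940.3 to 4568.1 and SHAM from 3500.7 over 3838.4 to 5946.7, the last in the library SHAM 5, and both overlapped Prevention. The 5 libraries with a high thalamus score, among them Prevention 1 and 4 and SHAM 5, had a Kcnc1 median of 4630.9. In the other 19 the median was 3792.9. The remaining Prevention libraries, from 3945.4 upward, also lay above every Treatment library. The part of thalamic tissue in these values was not tested.

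Kcng1, a subunit that modifies other voltage-gated channels and forms none of its own, had 1318.0, 1463.7, 2043.5, 1576.3 and 2030.3 normalised counts in Prevention, against 1679.8, 2116.1 and 2398.0 at the lowest, median and highest in SHAM. Its change was -0.34 (limma adjusted p = 0.228), and OVX ran from 1655.2 to 2545.6. The Prevention libraries split, with 3 below every SHAM library and 2 within its range. Of the low ones, Prevention 1 and 4 had a high thalamus score and Prevention 2, at 1463.7, did not. Kcng1 had a median of 1585.3 in the 5 libraries with a high thalamus score and of 2059.9 in the other 19. The part of thalamic tissue in these values was not tested.

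Kcnh4, a member of the ether-à-go-go family, had 516.8, 347.1, 429.2, 446.1 and 436.2 normalised counts in Treatment, against 273.2, 348.7 and 396.3 in SHAM and 298.9, 337 and 491.8 in OVX (lowest, median and highest). The change was 0.34 against SHAM (limma adjusted p = 0.7) and 0.25 against OVX (adjusted p = 0.709). Treatment 2 lay within the SHAM range and the other 4 Treatment libraries above it. Kcnh5, of the same family, had 180.2, 161, 127.9, 204.4 and 146.2 in Prevention and ran in OVX from 23.72 over 87.68 to 184.8. Kcnh7 had 542.8, 660.1, 535.7, 531.1 and 509.2 in Prevention, against 156.7, 421.4 and 527.9 at the lowest, median and highest in OVX, so that 4 of the 5 Prevention libraries lay above every OVX library. OVX 3 was the lowest library for both genes. The change in Prevention against OVX was 0.94 for Kcnh5 (SE 0.32, limma adjusted p = 0.126) and 0.67 for Kcnh7 (SE 0.24, adjusted p = 0.143). With the set as a term the changes were 1.08 (SE 0.61) and 0.83 (SE 0.46). Kcnh1 averaged 1632.0 ± 263.4 in Prevention, 1521.1 ± 144.7 in Treatment, 1444.9 ± 163 in OVX and 1568.5 ± 160.5 in SHAM.

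Kcna4 and Kcnd3 are among the A-type channels, which inactivate quickly and delay firing; Kcnd2 was not analysed here. Kcna4 had 934.1, 1013.1, 803.6, 835.4 and 708.4 normalised counts in Prevention, 909, 700.3, 1078.6, 734.2 and 815.7 in Treatment, and medians of 718.9 in OVX and 709 in SHAM. Kcnd3 averaged 3313.5 ± 375.6 in Prevention, 3004.1 ± 240.1 in Treatment, 3127.3 ± 240.6 in OVX and 2957.2 ± 296.6 in SHAM. The groups overlapped for both genes. Kcng3, whose SD over libraries was exceeded only by Kcnh5 among members of the class with a mean of at least 50, averaged 71.79 ± 22.75 in Prevention, 70.69 ± 25.95 in Treatment, 64.22 ± 37.98 in OVX and 60.76 ± 20.27 in SHAM.

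Among the two-pore channels, Kcnk18, whose channel is activated by calcineurin and is best known in sensory neurons, had the largest change of the class in Prevention against OVX and was measured at a low level. It was added to the genes named after its values were seen, since its mean of 29.1 lay below the minimum of 50 set for named genes. Kcnk18 (chr1:268360738-268375012) had 46.53, 43.18, 50.98, 31.8 and 25.19 normalised counts in Prevention, against 14.5, 21 and 29 at the lowest, median and highest in OVX. Treatment had 59.5, 38.62, 19.87, 34.5 and 30.63, and SHAM ran from 18.45 over 24.51 to 33.53. In Prevention 4 of 5 libraries lay above every OVX library, and in Treatment 4 of 5.

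The change of Kcnk18 was 0.90 in Prevention against OVX (SE 0.24, limma adjusted p = 0.0675) and 0.76 in Treatment against OVX (SE 0.24, adjusted p = 0.619), and it had the smallest adjusted p of the members for any difference among the groups, 0.179. Within Treatment, the high set libraries 1 and 2 had 59.5 and 38.62, above the 19.87, 34.5 and 30.63 of the low set. With the library set as a term the Prevention against OVX change was 0.13 (SE 0.41) and the Treatment against OVX change 0.45 (SE 0.26). The part of the set in this result was not tested beyond that term.

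Kcnk12, a halothane-inhibited channel, had 521.3, 508.2, 500.4, 499.4 and 406.9 normalised counts in Prevention, against 268.3, 382 and 465.7 at the lowest, median and highest in OVX and 356.4, 399.2 and 430.7 in SHAM. Treatment had 388.8, 466.7, 448.6, 330.4 and 338.2. In Prevention 4 of 5 libraries lay above every library of the other groups, and Prevention 5 lay within them. Changes were 0.40 in Prevention against OVX (SE 0.11, limma adjusted p = 0.0794), 0.30 against SHAM (adjusted p = 0.253) and -0.31 in Treatment against Prevention (adjusted p = 0.802). With the set as a term Prevention against OVX gave 0.19 (SE 0.21).

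Kcnk2, a channel opened by stretch, heat and lipids, was measured higher in both E2 groups. It had 833.9, 700.7, 887.7, 963.8 and 644.4 normalised counts in Treatment, 825.8, 829.4, 607, 895.1 and 737.6 in Prevention, and ran from 590.8 over 692.4 to 747 in OVX and from 574.1 over 614.1 to 775 in SHAM. In Treatment 3 of 5 libraries lay above every OVX and SHAM library, as did 3 of 5 in Prevention. The change was 0.31 in Treatment against SHAM (limma adjusted p = 0.606), 0.27 in Prevention against SHAM (adjusted p = 0.249) and 0.24 in Treatment against OVX (SE 0.10, adjusted p = 0.686). The 5 libraries with a high thalamus score had a Kcnk2 median of 825.8, against 647.7 in the other 19. Among the 5 were the Prevention libraries at 825.8 and 895.1 and the Treatment library at 963.8. Those at 829.4 in Prevention and at 833.9 and 887.7 in Treatment, also above every OVX and SHAM library, had no high score. Without the 5 libraries with a high thalamus score, the change in Treatment against OVX was 0.19 (SE 0.0998). The part of thalamic tissue in these values was not tested further.

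Kcnk15, a relative of the acid-sensitive channels that by itself gives no current in cell assays, had 200.2 to 282.8 normalised counts in Treatment, against 274 to 387.7 in Prevention. Its change was -0.28 (limma adjusted p = 0.841), and 0.25 in Prevention against SHAM (adjusted p = 0.326). Prevention 2, at 387.7, stood above the other 4 of its group, 274 to 299.3. Kcnk1, Kcnk4 and Kcnk9, leak and mechanosensitive channels of neurons and glia, averaged 1964.9 ± 344.3, 962.4 ± 260.2 and 595.6 ± 192.9 in Prevention. In OVX the same genes averaged 1730.4 ± 147.9, 1032.0 ± 96.16 and 514.1 ± 137.4, and the groups overlapped for each. Kcnk16, with the largest SD over libraries among two-pore members with a mean of at least 50, averaged 60.85 ± 13.59 in Prevention, 81.82 ± 34.55 in Treatment, 67.02 ± 24.44 in OVX and 78.63 ± 39.46 in SHAM.

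**Figure D2:**
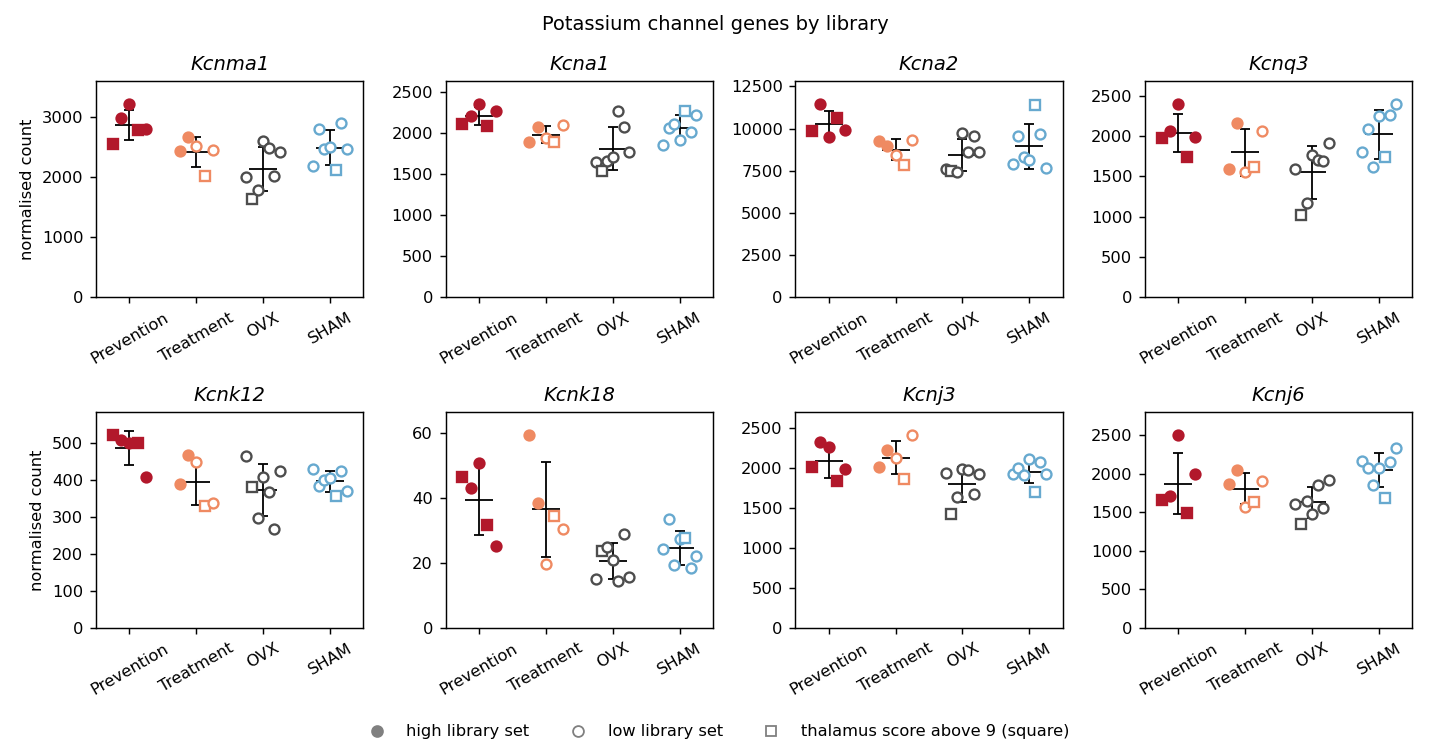
Normalised counts of 8 potassium channel genes in every library, by group; filled points belong to the high library set, squares have a thalamus score above 9, and bars show the mean and SD. Kcnma1 in Prevention lies between 2549.7 and 3221.5, and in OVX between 1637.9 and 2609.0.

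Among the inward rectifiers, Kcnj3, Kcnj6 and Kcnj9 encode the channels that G proteins open below inhibitory receptors such as GABA-B. Kcnj3 had 2018.5, 2234.4, 2133.9, 1861.3 and 2415.7 normalised counts in Treatment, against 1421.6, 1925.6 and 1990.4 at the lowest, median and highest in OVX, and 2014.0, 2332.9, 2268.1, 1837.0 and 1986.4 in Prevention. In Treatment 4 of 5 libraries lay above every OVX library. The change was 0.25 in Treatment against OVX (SE 0.0816, limma adjusted p = 0.619), and 0.24 without the 5 libraries with a high thalamus score (SE 0.0658, adjusted p = 0.682).

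Kcnj6 had 1353.0, 1610.2 and 1912.0 normalised counts at the lowest, median and highest in OVX, against 1680.0, 2074.6 and 2335.4 in SHAM. The upper OVX libraries overlapped the lowest SHAM libraries. The change was -0.33 (SE 0.0987, limma adjusted p = 0.795), the smallest p of a member in that comparison. Prevention had 1657.1, 1715.0, 2500.5, 1485.6 and 1992.5 and Treatment 1870.8, 2051.5, 1566.2, 1628.4 and 1902.0, and both overlapped OVX and SHAM. Kcnj9 averaged 3067.8 ± 318.7 in Prevention, 3144.3 ± 231.1 in Treatment, 3093.0 ± 409.7 in OVX and 3171.5 ± 229.6 in SHAM.

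Other inward rectifiers overlapped between all groups. Kcnj11, the pore of the ATP-sensitive channel, averaged 1268.6 ± 82.24 normalised counts in Prevention, 1284.0 ± 84.8 in Treatment, 1264.6 ± 135.7 in OVX and 1294.2 ± 108.2 in SHAM. Kcnj4 averaged 1842.2 ± 217.8 in Prevention, 1776.4 ± 302.9 in Treatment, 1750.9 ± 261.1 in OVX and 1780.0 ± 315.3 in SHAM. Kcnj2, the classical strong rectifier, averaged 157.1 ± 15.55 in Prevention, 150.2 ± 12.39 in Treatment, 162.9 ± 24.46 in OVX and 171.4 ± 44.4 in SHAM. Kcnj10 was not analysed here.

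The auxiliary subunits carry no current and change the gating or transport of the pores. Kcnab2, a beta subunit of Kcna channels, averaged 15580.7 ± 2322.3 normalised counts in Treatment, against 17851.6 ± 1879.2 in SHAM (SD), a change of -0.20 (limma adjusted p = 0.815). Kcnab1 averaged 5739.2 ± 583.4 in Prevention, 5734.7 ± 829.8 in Treatment, 5395.1 ± 647.1 in OVX and 5547.6 ± 727.7 in SHAM. Kcnmb4, the neuronal partner of the Kcnma1 channel, averaged 1551.1 ± 164.8 in Prevention, 1398.1 ± 178.8 in Treatment, 1431.1 ± 131.5 in OVX and 1435.7 ± 152.1 in SHAM, and Prevention lay within 1 SD of the other groups. The Kcnip genes encode calcium sensors that bind Kcnd channels. Kcnip2 averaged 8037.7 ± 1567.5 in Prevention, 7543.9 ± 1068.1 in Treatment, 8091.4 ± 1220.8 in OVX and 8230.5 ± 883 in SHAM, and Kcnip1, Kcnip3 and Kcnip4 likewise overlapped in all groups. Kcnab3, another beta subunit, ran from 443.6 to 823.1 in Prevention, 494.4 to 667.5 in Treatment, 445.1 to 923.2 in OVX and 418 to 1175.4 in SHAM.

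The library set was entered as a term beside the groups in 1 alternative fit. In Prevention against OVX, 58 of 84 members kept the sign of their change, the median standard error of a member was 0.25 with the term and 0.14 without, and the median change of the members was 0.0289. Members called were 0, and 5 had an unadjusted p under 0.05 (5.95%, against 3.55% of all tested genes). Within 1 library set, Treatment against OVX could be compared over Treatment 5, 6 and 7 and called 0 members and 0 of all tested genes, with a median change of the members of 0.0052. At an unadjusted p under 0.05 there were 7 members (8.33%, against 3.31% of all tested genes). Treatment against SHAM over the same Treatment libraries called 0 members, and 12 had an unadjusted p under 0.05 (14.3%, against 5.04%). With the set as a term that comparison had 9 (10.7%, against 5.22%). Within a set, OVX against SHAM had 7 (8.33%, against 6.04%) and Treatment against Prevention 4 (4.76%, against 4.91%), with 0 members called in each.

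**Figure D3:**
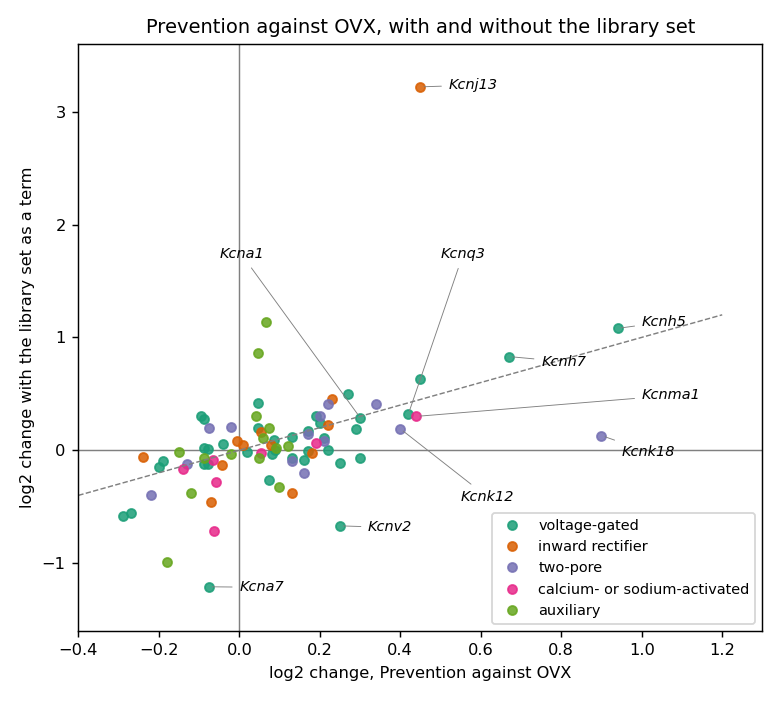
Log2 change in Prevention against OVX of each tested potassium channel gene (x axis), and the same with the library set as a term (y axis); each point is 1 gene, coloured by class, and the dashed line marks equal values. Kcnma1 lies at 0.44 without and 0.30 with the term, and Kcnk18 at 0.90 and 0.13.

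Some members moved with the marker scores of tissue beside the hippocampus. Kcnj13, an inward rectifier of choroid plexus epithelium, ranged from 10.24 to 1756.9 normalised counts, both extremes in SHAM libraries. In the 12 libraries with a choroid plexus score above 9 it had 108.2 to 1756.9, and in the other 12 it had 10.24 to 40.24, without overlap. Kcne2, an auxiliary subunit of that epithelium, had 112.2 to 1333.2 in those 12 libraries and 78.15 to 133.5 in the others, with some overlap. These were the 2 members whose highest library exceeded the lowest by more than 10 times, and 36 of the 84 exceeded 2 times. High and low libraries occurred in every group, and the part of choroid plexus in the group values of these genes was not tested.

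In the 5 libraries with a high thalamus score, 5 members lay above all of the other 19 libraries (5.95% of 84, against 0.937% of all tested genes) and 0 lay below all of them (against 0.0869%). Kcnc2, a fast channel of interneurons and thalamic cells, had 3167.7 to 5013.5 normalised counts in these 5, against 1809.4 to 2621.7 in the other 19. Kcnh2 had 1956.0 to 2287.7 against 1115.6 to 1609.6, and Kcnk3, an acid-sensitive leak channel, 587.4 to 776.7 against 310.2 to 555.5. Kcnj16, a partner subunit of glial rectifiers, had 671.2 to 1101.4 against 260.7 to 658.7, and Kcne5 104.9 to 129.1 against 52.46 to 94.38. The 2 high libraries of Prevention and 1 each of Treatment, OVX and SHAM hold these values, and the part of thalamic tissue in them was not tested. With that score as a covariate 7 members passed in Prevention against OVX, Kcna1, Kcnc2, Kcnj3, Kcnk18, Kcnma1, Kcnq3 and Kcnt2 (8.33% of members, against 3.21% of all tested genes in that fit). Leaving out those 5 libraries, 2 of them of Prevention, called 0 members and 0 of all tested genes in that comparison. At an unadjusted p under 0.05 that fit had 18 members (21.4%, against 13.5% of all tested genes).

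**Figure D4:**
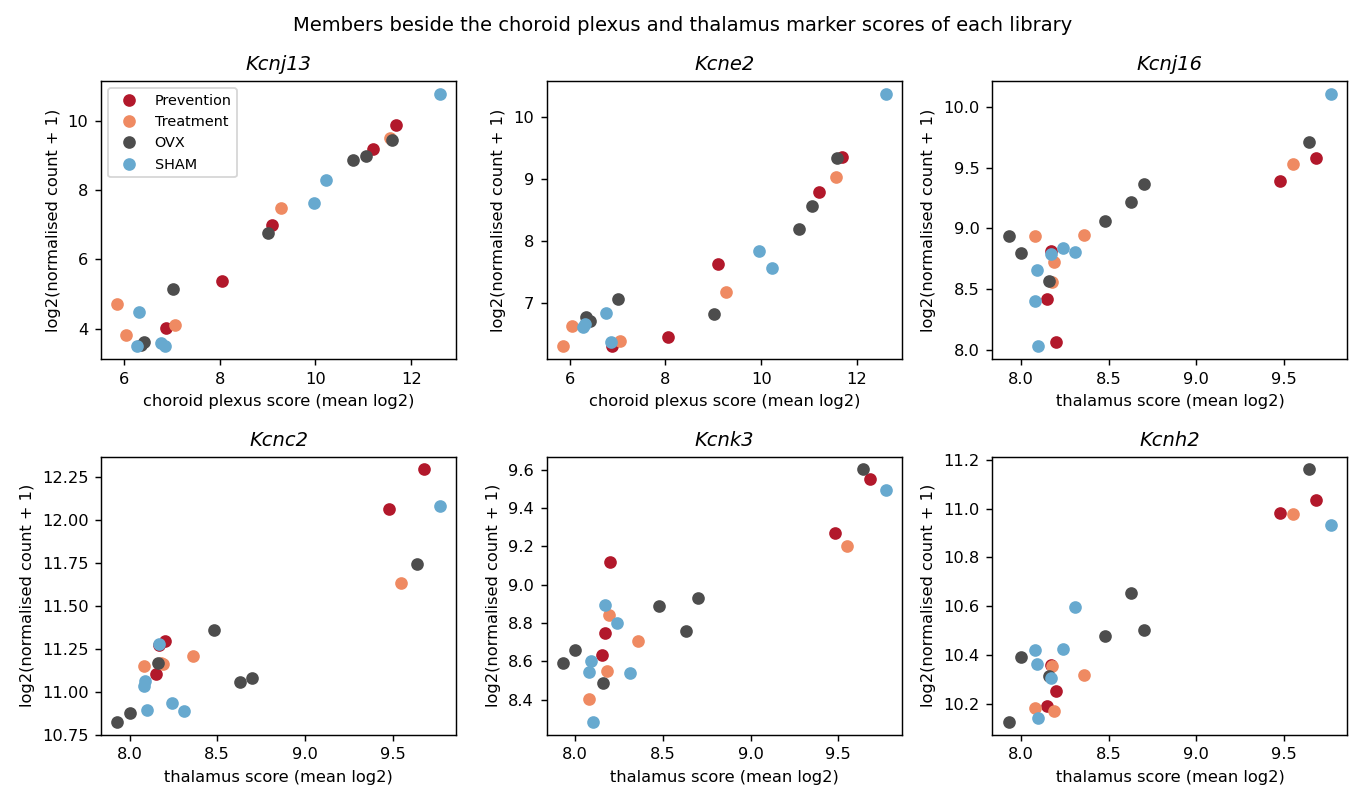
Log2 levels of 6 potassium channel genes beside the choroid plexus and thalamus marker scores of the 24 libraries (mean log2 level of the markers); each point is 1 library. Kcnj13 stays between 10.24 and 40.24 in the 12 libraries with a choroid score of 9 or less.

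Genes that work with these channels were counted from lists chosen with earlier results of these data known. Of partner proteins of potassium channels 12 of 14 listed were tested, of the hyperpolarisation-activated HCN pacemaker channels 4 of 4, and of potassium pumps and cotransporters 11 of 11. Called were 0 in either direction in all 6 comparisons. In Prevention against OVX, 10 of 12 partner proteins, 3 of 4 HCN genes and 8 of 11 pumps and cotransporters had a positive change, with medians of 0.0282, 0.20 and 0.0688, against 0.00081 over all genes. The smallest adjusted p was that of Ank3, which anchors channels at the axon initial segment, with a change of 0.19 (limma adjusted p = 0.0794). Hcn2 had changes of 0.28 in Prevention against OVX (adjusted p = 0.132) and -0.38 in Treatment against Prevention (adjusted p = 0.478).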

How the data were processed

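Hippocampal RNA of 24 libraries was compared. The authors deposited normalised counts, a signal per gene and library; the submitters' processing notes name kallisto 0.43 and DESeq2, and no genome build or annotation is stated there or in the labels. Whole reads could not be recovered from the values, so depth and counting error are unknown, and precision rests on the spread between libraries. Groups and replicate numbers came from the labels.

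The 89 symbols were matched by pattern; all had a symbol in the reference, from which positions and promoter windows (RefSeq, GRCr8) came. Values were log2(normalised count + 1), tested with limma 3.58.1 in R 4.3.3 over 16119 features with a mean of at least 10, in 1 fit of all 24 libraries with a mean per group and a mean-variance trend, with Benjamini-Hochberg adjustment over all of them and a threshold of 0.05. The steps were tested on simulated data. Python 3.11.15 and matplotlib 3.10.9 drew the figures.

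Genes named were, per comparison, the 5 with the smallest p and a mean of at least 50, the members with the largest SD per class, and well-known channels; some of them are not reported here. The members and lists were chosen with earlier results of these data known. Alternatives were other pseudocounts, filters, scalings and covariates, the replicate block, the library set as a term, and each library left out; leaving out the 5 libraries with a high thalamus score was added after seeing the data.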

Additional observations from a re-analysis of the deposited data

Results flagged for a closer look

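In 112 groups of libraries (23 members and the 5 class means in 4 groups), 7 held a library whose gap to the next exceeded Dixon's limit, and chance gives about 1 in 20. SHAM 5 had 5946.7 normalised counts of Kcnc1, against 3500.7 to 4215.3 in the other SHAM libraries, and 1101.4 of Kcnj16, against 260.7 to 455.9. SHAM 7 had 1333.2 of Kcne2, against 82.54 to 228.2, and a mean log2 level of auxiliary subunits of 9.20, against 8.99 to 9.07. OVX 2 had 776.7 of Kcnk3, against 357.8 to 487.1 in the other OVX libraries. Prevention 5 had 406.9 of Kcnk12, against 499.4 to 521.3 in the other Prevention libraries, and Prevention 2 had 387.7 of Kcnk15, against 274 to 299.3.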

How the results depend on the processing

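Depth is not known, so a value of Kcnk18 or of other low genes carries an unmeasured counting error. The 32 pairs of a gene and a comparison kept their direction in all 1139 alternative values. Of these pairs, 30 were chosen by smallest p and 2 of Kcnk18 were added after its values were seen. Kept direction was largely set by that choice, made in the same libraries, and is no support. Over all members, 58 of 84 kept their sign in Prevention against OVX with the set as a term. Of the alternative values, 17 passed the threshold, all in Prevention against OVX. In that comparison members called, 0 as reported, were 1 with a mean of at least 100, 2 with the choroid plexus score, 7 with the thalamus score, and 0 to 3 when each library was left out (3 without OVX 7); in the other 5 comparisons and the test of any difference they were 0 in every alternative. All genes called in Prevention against OVX (49) were 97 with a mean of at least 100, 3 with the replicate block, 0 with the set as a term, 264 with the choroid and 518 with the thalamus score, 5 with the groups fitted alone, 0 without the 5 libraries with a high thalamus score, and 1 to 481 leaving out each library (1 without Prevention 3, 481 without OVX 7). In Prevention against SHAM (57) they were 88 with a mean of at least 100, 4 with the block, 0 with the set, 126 with the choroid and 120 with the thalamus score, 156 with the groups alone, 0 without the 5 libraries, and 10 to 153 leaving out each. In Treatment against Prevention (0) they were 2 with a pseudocount of 8, 3 with the thalamus score and 0 to 11 leaving out each, and in Treatment against SHAM (1) 3 with quantile normalisation, 0 with the block, 6 with the groups alone and 1 to 5 leaving out each. For any difference among the groups (17) they were 3 with the block, 1 with the set, 39 with the choroid and 51 with the thalamus score, 0 without the 5 libraries and 2 to 47 leaving out each. Replicate numbers did not pair the libraries: 30 pairs of the same number had a median correlation of deviations of -0.124. Class medians moved with the set as a term to 0.0142 for voltage-gated channels in Prevention against OVX, and in Prevention against SHAM to -0.00326 for voltage-gated, 0.0569 for two-pore, -0.0239 for calcium- or sodium-activated and -0.0399 for auxiliary members. Without the 5 libraries they were 0.0157 for two-pore and 0.00474 for auxiliary members in Treatment against Prevention, 0.052 for two-pore and -0.044 for calcium- or sodium-activated members in Prevention against SHAM, and 0.0414 for auxiliary members in Treatment against SHAM; the thalamus score gave -0.033 for calcium- or sodium-activated members in Prevention against SHAM. The sign of 20 of the 30 class medians changed without some single library. Leaving out each library, auxiliary members in Prevention against SHAM ran from -0.0262 (without Prevention 1) to 0.0884 and in Treatment against Prevention from -0.11 to -0.0128 (without Prevention 3), two-pore members in Treatment against Prevention ran from -0.13 to 0.00745 (0.00745 without Treatment 5), calcium- or sodium-activated members in Prevention against SHAM from -0.0435 (without Prevention 4) to 0.12, and auxiliary members in Treatment against SHAM from -0.0801 to 0.0303 (without Treatment 6). The cause was not tested for any of these.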
